A study of Caenorhabditis elegans with 7 samples.

Results

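The pud genes of Caenorhabditis elegans are 6 short protein-coding genes, pud-1.1, pud-1.2, pud-2.1, pud-2.2, pud-3 and pud-4, that lie side by side on chromosome V. They are 6 of the 46778 genes in the deposited expression table, taken by their gene names. The family was chosen by its fall in FPKM from WT to WT Late libraries in this same table, so its levels are given below as a description, and no p-value is given for a pud gene.

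RNA was sequenced from whole animals at L4, the last larval stage, of the wild-type laboratory strain N2, to ask how repeated selection of late progeny changed the transcripts present at L4. The WT group had 3 libraries from animals under no selection, and the WT Late group had 4 libraries from animals propagated for at least 50 generations through progeny laid on day 3 of adulthood. The WT animals are N2, and the WT Late animals were derived from N2. The paper reports variants in coding regions from genome-wide sequencing of WT Late animals, so the genotypes are not taken to be the same. Both groups were synchronized as L1s and grown to L4 on OP50 bacteria on NGM plates with streptomycin. The labels call the libraries of each group biological replicates. The WT Late animals are described as a selected population, and separately selected lines are not named. The p-values thus measure the spread between these libraries, not the spread between selected lines.

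The letters pud stand for protein up-regulated in daf-2. PUD-1 and PUD-2 were found as abundant proteins that rise when the insulin receptor DAF-2 is reduced, and they bind each other as a heterodimer. The copies pud-1.1 and pud-1.2 encode the same protein, as do pud-2.1 and pud-2.2, while PUD-3 and PUD-4 are related proteins. The proteins have been seen in the intestine and the epidermis, and what they do at the molecular level is not known.

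The 6 genes span 8893 bases of chromosome V, from 2322038 to 2330930 in the deposited coordinates, and the table places no other gene inside this stretch. No source used here gives the genome build, but for 99.99% of the 46603 identifiers that are also in the Ensembl annotation of WBcel235, the deposited and reference spans overlap on 1 strand. From left to right, pud-1.2 (WBGene00021236) lies at 2322038 to 2322566 on the minus strand and pud-2.2 (WBGene00017500) at 2323014 to 2323524 on the plus strand. Next, pud-3 (WBGene00017501) lies at 2324510 to 2326827 on the minus strand and pud-4 (WBGene00017498) at 2326678 to 2327262 on the plus strand. Last, pud-2.1 (WBGene00017490) lies at 2329444 to 2329954 on the minus strand and pud-1.1 (WBGene00017499) at 2330429 to 2330930 on the plus strand. The genes thus form 3 divergent pairs, each with a minus-strand gene on the left and a plus-strand gene on the right. The starts of pud-1.2 and pud-2.2 are 447 bases apart and those of pud-2.1 and pud-1.1 are 474 bases apart, so the outer pairs mirror each other.

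In the reference annotation, each gene but pud-3 has 2 exons around a short intron, which is 41 bases long in pud-4 and 46 bases long in the pud-1 and pud-2 copies. Both pud-1 copies hold 453 coding bases and both pud-2 copies hold 462. The model of pud-3 is the uncertain one. Its deposited span is 2318 bases with a gene length of 758 bases, against a single exon of 519 bases, 2324634 to 2325152, in the reference. The longer model overlaps the start of pud-4 by 150 bases on the opposite strand, where the reference leaves a gap of 1525 bases. The counting is not stated to use strand, so reads in that overlap cannot be given to either gene. The deposited length of pud-3 is 1.46 times the reference exon bases, and as a divisor it is the same in every library. The longer model also sets which reads were counted for pud-3, and its effect on ratios between libraries was not tested. WBGene00017490 is called pud-2.1 in the deposited table and in RefSeq, and pud-2.2 in Ensembl.

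**Figure D1:**
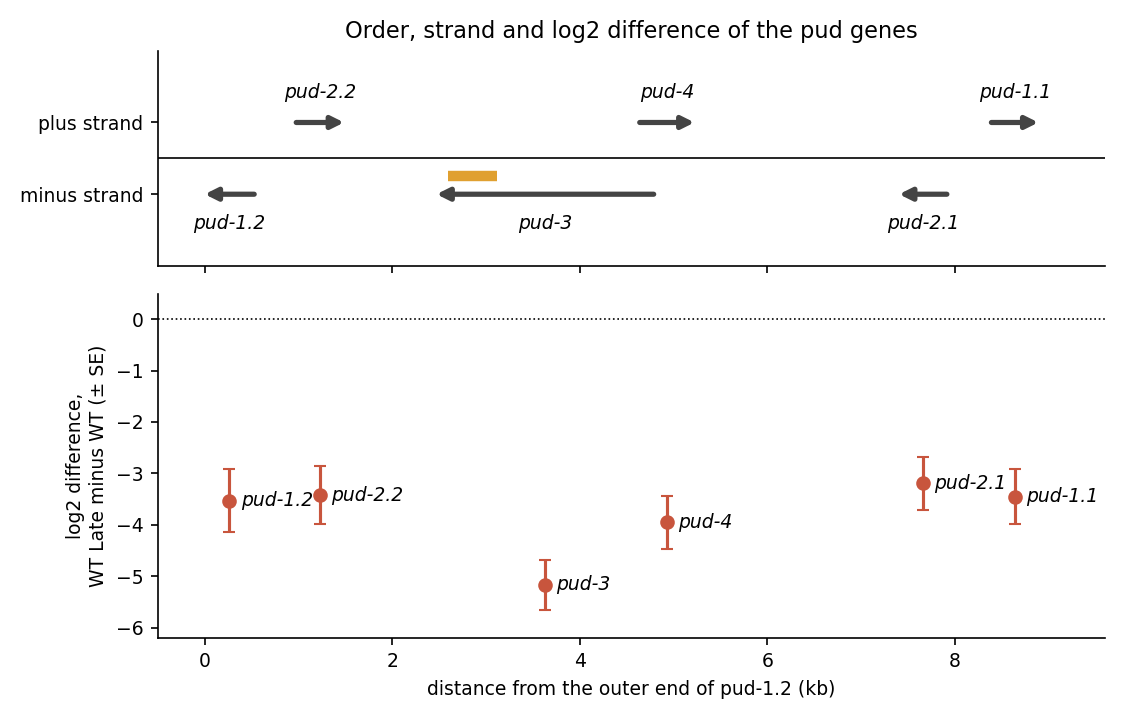
The upper panel draws the 6 pud genes by strand against distance in kb from the outer end of pud-1.2, as arrows over their deposited spans, with the shorter reference exon of pud-3 as an orange bar. The lower panel gives each gene's log2 difference, WT Late minus WT, with its SE, and every point lies between -5.17 for pud-3 and -3.19 for pud-2.1.

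Levels are given as rescaled FPKM, the deposited reads per kilobase of gene length after library scaling, divided once more by a library factor from medians of ratios. In WT animals, pud-3 stood at 716, 287 and 484 rescaled FPKM in replicates 1, 2 and 3. In WT Late animals, pud-3 stood at 9.97, 5.76, 21.5 and 18.8 in replicates 1 to 4. The groups do not overlap, and the lowest WT value was 13.4 times the highest WT Late value. The means were 496 ± 215 (SD, n = 3) and 14.01 ± 7.38 (SD, n = 4), a ratio of 35.4. On the log2 scale of rescaled FPKM plus a pseudocount of 0.5, on which all log2 differences here are given, the difference was -5.17 (SE 0.49). In the rank of all 13194 tested genes by mean level, pud-3 moved from place 316 in WT animals to place 3580 in WT Late animals. In whole animals, fewer expressing cells and less RNA per cell cannot be told apart.

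The other gene of the central pair, pud-4, encodes a relative of PUD-1 and PUD-2. It stood at 207, 68.1 and 118 rescaled FPKM in WT replicates 1 to 3, and at 4.60, 12.2, 12.9 and 3.55 in WT Late replicates 1 to 4. The lowest WT value was 5.28 times the highest WT Late value. The means of 131 ± 70.3 (SD, n = 3) and 8.31 ± 4.92 (SD, n = 4) give a ratio of 15.8 and a log2 difference of -3.95 (SE 0.52). WT Late replicate 2 was the library with the least pud-3 yet was close to the highest in pud-4, and it is the only library in which pud-4 exceeded pud-3.

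The pud-1 copies encode one partner of the heterodimer. pud-1.1 stood at 57.5, 14.2 and 18.5 rescaled FPKM in the WT libraries and at 0.934, 1.67, 3.68 and 1.69 in the WT Late libraries. Its means were 30.1 ± 23.8 (SD, n = 3) and 1.99 ± 1.18 (SD, n = 4), with a ratio of 15.1 and a log2 difference of -3.45 (SE 0.54). Its copy pud-1.2, at the other end of the cluster, followed a similar course. pud-1.2 stood at 77.7, 14.7 and 24.3 in the WT libraries and at 1.87, 1.05, 6.14 and 1.597 in the WT Late libraries. Its means were 38.9 ± 34.0 (SD, n = 3) and 2.67 ± 2.34 (SD, n = 4), with a ratio of 14.6 and a log2 difference of -3.53 (SE 0.62). For both copies the SD in WT animals was near the mean because WT replicate 1 was far above the other 2, and for pud-1.2 the lowest WT value was only 2.39 times the highest WT Late value, the narrowest gap of the family.

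The pud-2 copies encode the other partner. pud-2.1 stood at 32.6, 14.4 and 19.7 rescaled FPKM in the WT libraries and at 2.06, 1.22, 4.70 and 0.8295 in the WT Late libraries. Its means were 22.2 ± 9.34 (SD, n = 3) and 2.204 ± 1.74 (SD, n = 4), with a ratio of 10.1 and a log2 difference of -3.19 (SE 0.51). These were the smallest ratio and the smallest log2 difference of the 6 genes. pud-2.2 stood at 31.4, 14.04 and 18.9 in the WT libraries and at 0.687, 1.497, 4.799 and 0.622 in the WT Late libraries. Its means were 21.4 ± 8.95 (SD, n = 3) and 1.90 ± 1.97 (SD, n = 4), with a ratio of 11.3 and a log2 difference of -3.42 (SE 0.57). For both copies the WT and WT Late values were apart, and the lowest WT value was 3.07 times (pud-2.1) and 2.93 times (pud-2.2) the highest WT Late value.

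**Figure D2:**
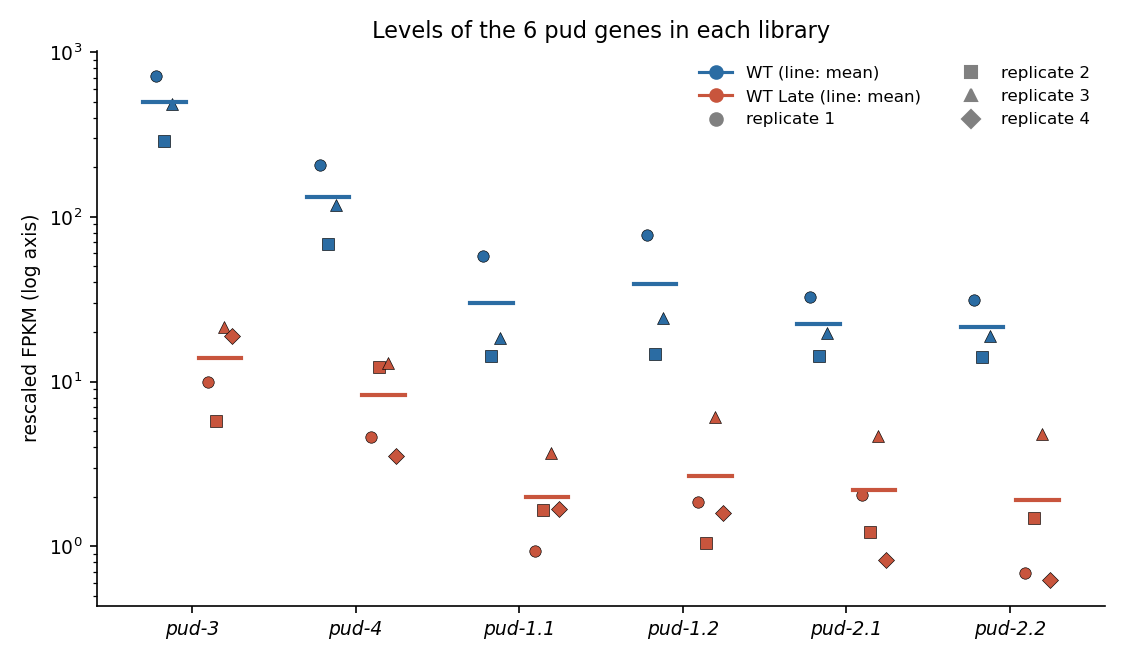
Rescaled FPKM of each pud gene on a log axis, with 1 symbol per library (shape gives the replicate number), blue for WT, red for WT Late and a line at each group mean. The blue and red symbols of a gene do not overlap, and the gap is widest for pud-3, between 287 and 21.5.

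In WT animals the 6 genes shared their highest and their lowest library. WT replicate 1 held the highest and WT replicate 2 the lowest WT level of all 6 genes. The span from lowest to highest WT library was 2.24-fold for pud-2.2 and 5.30-fold for pud-1.2, the extremes of the family. WT Late replicate 3 held the highest WT Late level of all 6, but the genes did not share a lowest library there. The lowest WT Late library was replicate 4 for 3 genes, replicate 2 for 2 genes and replicate 1 for 1 gene. In WT Late replicate 3, the WT mean of pud-3 was 23.1 times its level, and that of pud-2.2 was 4.47 times its level. Without WT Late replicate 3, the ratio of WT to WT Late means would be 43.0 for pud-3, 19.3 for pud-4, 21.015 for pud-1.1, 25.8 for pud-1.2, 16.2 for pud-2.1 and 22.9 for pud-2.2.

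Libraries differed in ways that touch these values. Reads on genes lay between 17553893 and 20961698, a narrow range. The library sizes behind the deposited FPKM varied more, from 12222798 in WT Late replicate 4 to 31576710 in WT Late replicate 3. In these libraries the size was 0.675 and 1.79 times the reads on genes. The levels and gaps given here depend on that scaling. For pud-1.2, WT replicate 2 had 165 reads of 19719809 and WT Late replicate 3 had 129 of 17647347. By reads alone, that gap was narrower than the 2.39 times in rescaled FPKM. Genes with a read lay between 11069 in WT Late replicate 2 and 18490 in WT Late replicate 3. In WT Late replicate 2, 1831 genes with a median of at least 15 reads over the other libraries had none, against 0 to 183 in the other libraries. Ribosomal protein genes took 13.2% of the reads in WT Late replicate 3 and between 24.1% and 35.6% elsewhere. The 6 pud genes kept at least 3 reads each in every library.

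The reads behind the levels set their precision. The 6 genes together held 13538, 6553 and 10696 reads in the WT libraries and 238, 214, 1407 and 191 reads in the WT Late libraries. Over all libraries pud-2.2 had the fewest reads, though not in each library, with 264, 152 and 200 reads in WT and 6, 11, 97 and 3 in WT Late libraries. The summed rescaled FPKM of the family was 1122, 412 and 684 in WT animals, a mean of 739 ± 358 (SD, n = 3). It was 20.1, 23.4, 53.7 and 27.1 in WT Late animals, a mean of 31.1 ± 15.3 (SD, n = 4). pud-3 made up most of the sum in WT animals, 63.8%, 69.6% and 70.8% of it. Its share was 49.5%, 24.6%, 40.0% and 69.4% in WT Late replicates 1 to 4, so it was lower than in any WT library in 3 of the 4, and within the WT range in replicate 4. These shares depend on how reads that match both copies of pud-1 or of pud-2 were counted, which is not stated.

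The order of levels per length was pud-3, pud-4, pud-1.2 in all 3 WT libraries, with pud-1.1, pud-2.1 and pud-2.2 below them in changing order. If reads that match both copies of a pair were left out, the pud-1 and pud-2 levels are too low in this order. How such reads were counted is not stated. The lowest WT level of pud-3 (287) was above the highest of pud-4 (207), whereas the ranges of pud-4 and pud-1.2 met. The WT ranges of the 4 genes pud-1.1, pud-1.2, pud-2.1 and pud-2.2 overlapped. Within each WT library pud-1.2 was the highest of these, and no test between genes was made. In WT Late animals the ranges of pud-3 and pud-4 also overlapped. The level of pud-3 was 3.46, 4.21 and 4.09 times that of pud-4 in WT libraries. In WT Late libraries it was 2.17, 0.472, 1.67 and 5.31 times that level, a ratio that rests on 20 to 305 reads on pud-4. Both the ratio and the order of pud-3 and pud-4 depend on the deposited pud-3 model. That model overlaps pud-4 and is longer than the reference exon.

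The near-identical copies bear on how reads were divided, since a counter can give a read that matches both copies to either one or to none. Of the reads on the pud-2 pair, pud-2.1 took 50.9%, 50.6% and 51.1% in the WT libraries, with exact Clopper-Pearson 95% intervals of 46.6% to 55.2%, 44.9% to 56.4% and 46.1% to 56.0%. An equal level per length would give 50%, which lies inside all 3 intervals. In the WT Late libraries the share was 75.0%, 45.0%, 49.5% and 57.1%, from 24, 20, 192 and 7 reads, and only the interval of replicate 1 (53.3% to 90.2%) left out 50%. The intervals cover counting error only.

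The pud-1 pair was less even. Of its reads, pud-1.1 took 41.1%, 47.8% and 41.8% in WT replicates 1 to 3, where an equal level per length would give 48.6%. The intervals of WT replicate 1 (38.3% to 44.01%) and WT replicate 3 (37.3% to 46.5%) lay below that share. In the WT Late libraries pud-1.1 took 32.0%, 60%, 36.1% and 50.0%, and the interval of replicate 3 (29.5% to 43.2%) also lay below it. The share of reads on pud-1.2 was thus above the equal share beyond counting error in 3 of the 7 libraries. The intervals of the other 4 held the equal share. How reads that match both copies were divided is not stated, so whether the levels of the copies differ cannot be told from this split. With the copies summed, the log2 difference between the groups was -3.62 for pud-1 and -3.47 for pud-2, close to those of the single copies. The summed pud-1 level was 2.11, 1.02 and 1.11 times the summed pud-2 level in WT libraries. In WT Late libraries it was 1.02, 0.997, 1.03 and 2.27 times that level. The ratio was thus near 1 in 5 of the 7 libraries. No interval was made for it, and it depends on how shared reads were counted. In WT Late replicates 1, 2 and 4 it rests on 3 to 18 reads per copy.

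**Figure D3:**
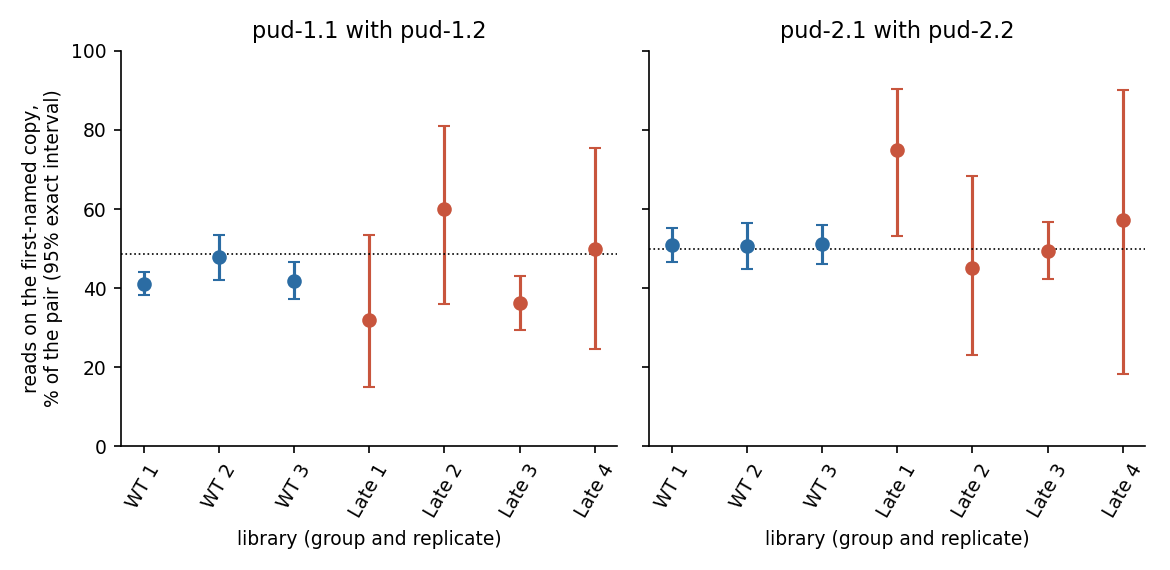
Share of a pair's reads on pud-1.1 (left) and on pud-2.1 (right), in percent, for each library, with exact 95% intervals and a dotted line at the share that equal levels per length would give. The WT shares of pud-2.1 sit on the line, between 50.6% and 51.1%, while the WT shares of pud-1.1 lie between 41.1% and 47.8%, and the WT Late intervals are wide.

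Across the whole table, limma with Benjamini-Hochberg adjustment called 88 genes higher and 24 genes lower in WT Late animals, 0.849% of the 13194 genes tested. The lower genes are 0.182% of those tested, and 6 of these 24 are the pud genes, a count that follows from how the family was selected and from which nothing is read. The WT Late values lay wholly below the WT values for 671 genes, 5.09% of those tested, and all 6 pud genes are among them. Since the pud genes were chosen on this contrast, how the count of called pud genes changed with the fit is also only a description. That count was 2 (pud-3 and pud-4) without WT replicate 1, where 0.0389% of all tested genes were called lower. It was 3 without WT replicate 3 (0.0542% of all), 4 without WT Late replicate 1 (0.0922%) and 5 without WT Late replicate 4 (0.199%). It was 2 with voom on recovered reads (0.106%), 2 with no filter on low values (0.0465%) and 5 with FPKM as deposited (0.159%). In all of these but the fit without WT Late replicate 4, the share of all genes called lower was also under 0.182%.

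The genes around the cluster were taken by position alone and read from the same fit. Of 64 genes within 100 kb on either side, 18 passed the filter on low values, 17 to the left and 1 to the right. None was called by limma at an adjusted p under 0.05, where 0.849% of all tested genes were called. Of the 18, 3 had an unadjusted p under 0.05, as had 1173 of the 13194 tested genes (8.89%). Counts this small leave little to compare with those shares. Voom called 0, and weighting the libraries by their estimated quality called 1, nhr-225. Their median log2 difference was 0.37, against -0.13 over all tested genes, with 14 above 0 and 4 below. Within 50 kb, 0 of 7 tested genes were called by limma (2 with an unadjusted p under 0.05), and within 250 kb 0 of 35 (4 with such a p).

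The nearest gene on the left, Y19D10B.6, ends 0.986 kb from pud-1.2. It stood at 1.12 ± 0.586 rescaled FPKM (SD, n = 3) in WT libraries, against 2.25 ± 0.953 (SD, n = 4) after selection, and its log2 difference of 0.75 did not pass (limma adjusted p = 0.699). Beyond it lie nuclear hormone receptor genes, of which nhr-226, nhr-115 and nhr-228 had log2 differences of 0.60, 0.70 and 0.28. nhr-225 overlaps nhr-115 on the opposite strand and had a log2 difference of -1.33 (limma adjusted p = 0.344). The left edge of the cluster was therefore followed within 1 kb by a gene whose value lay above 0.

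On the right, 7 genes with at most 0.859 rescaled FPKM in any library were not tested. The next tested gene, 20.7 kb away, is clec-209, which encodes a protein with a C-type lectin domain. It stood at 12.7, 4.82 and 1.63 rescaled FPKM in WT and at 1.14, 0.355, 1.42 and 0.541 in WT Late libraries. Its groups did not overlap, by a narrow margin, and its log2 difference was -2.04 (limma adjusted p = 0.254), the lowest of the 18. Like the pud genes, it was highest in WT replicate 1 and in WT Late replicate 3. Unlike them, it was lowest of the WT libraries in replicate 3, where the pud genes were lowest in replicate 2. Farther right, F56A4.2, the glutathione transferase gene gst-10, Y45G12C.1 and C29G2.6 had log2 differences of -0.57, -0.57, -0.21 and 0.23.

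**Figure D4:**
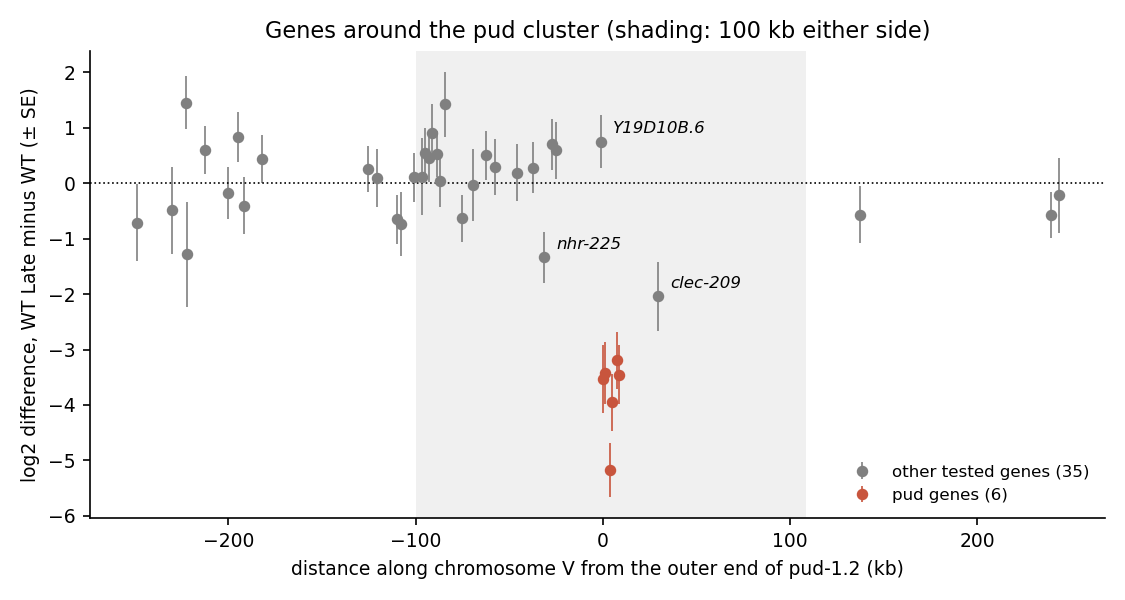
Log2 difference, WT Late minus WT, with its SE, for the 6 pud genes (red) and the 35 other tested genes within 250 kb (grey), against distance in kb along chromosome V from the outer end of pud-1.2. The grey points lie between -2.04 for clec-209 and 1.45, and the red points lie below all of them.

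Chromosome V held 2490 tested genes, of which limma called 10 lower. Without the 6 pud genes, 4 of 2484 were called lower. Chromosome X had 6 lower genes, II and IV had 4 each, and I and III had 0. The other lower genes of chromosome V were lipl-2, zip-10, dct-17 and grd-6, and all 4 start outside the window of 250 kb.

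The vitellogenins encode the yolk precursors that the intestine makes as animals become adults, and 5 of the 6 were called lower in the same comparison, so the fall of the pud genes can be set beside theirs. The vitellogenin list was chosen with these results known. vit-6 lies on chromosome IV and the others on chromosome X, so position is not shared with the pud genes. vit-1, vit-3, vit-4 and vit-5 had log2 differences of -4.11, -3.83, -3.86 and -3.24, and vit-6 had -2.48 (limma adjusted p = 0.0492). vit-2 had -2.34 and did not pass (limma adjusted p = 0.0686). Their median of -3.54 was near the size of most pud genes, and the count called lower was 3 without WT replicate 1 or without WT replicate 3.

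The medians of the families were close, at -3.49 for pud and -3.54 for the vitellogenins, but the order of the libraries within a group was not the same. All 6 vitellogenins were highest in WT replicate 3, where all 6 pud genes were highest in WT replicate 1. Both families were lowest in WT replicate 2. Among WT Late libraries all 6 vitellogenins were highest in replicate 4 and all 6 pud genes in replicate 3. Relative to each gene's WT mean, the median pud log2 level was 0.71, -0.74 and -0.10 in WT replicates 1 to 3 and -4.14, -3.59, -2.41 and -4.11 in WT Late replicates 1 to 4. The median vitellogenin log2 level was -0.13, -0.70 and 0.85 in WT and -3.86, -3.89, -3.64 and -2.59 in WT Late replicates. In either group, the library highest in yolk precursor RNA was thus not the one highest in pud RNA, a description over 7 libraries for which no test was made.

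**Figure D5:**
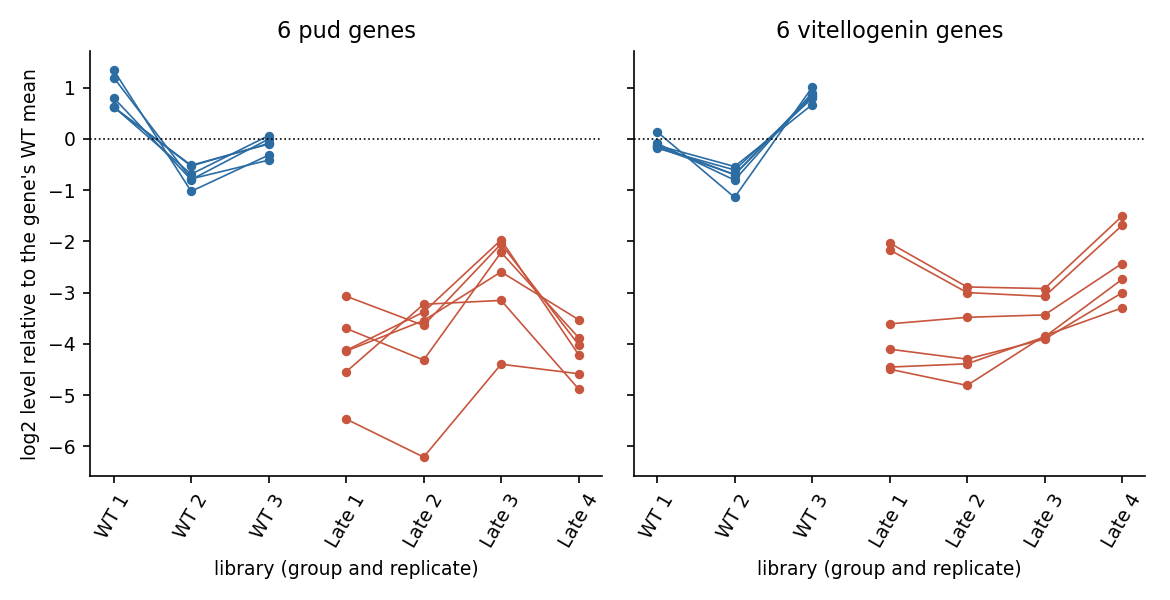
Log2 level of each pud gene (left) and each vitellogenin (right) relative to that gene's WT mean, in each library, with a line joining the values of 1 gene within a group (blue WT, red WT Late). The pud medians peak in WT replicate 1 (0.71) and WT Late replicate 3 (-2.41), and those of the vitellogenins in WT replicate 3 (0.85) and WT Late replicate 4 (-2.59).

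The genes most like the pud family were found by the mean absolute difference, over the 7 libraries, between a gene's log2 level and the mean log2 level of the 6 pud genes, each centred on its own mean. The 5 closest outside the family were 21ur-8571, a piRNA gene on chromosome IV (0.421), T24B8.5, a gene much used as a reporter of innate immune signalling, on chromosome II (0.484), the acid sphingomyelinase gene asm-3 on chromosome IV (0.604), T19D12.1 on chromosome II (0.678) and vit-3 (0.685). Within the family this distance ran from 0.263 for pud-1.1 to 0.786 for pud-3. The deeper fall of pud-3 thus set it farther from the family mean than these 5 other genes. None of the 5 lies on chromosome V. 21ur-8571 stood at 13.2, 10.2 and 8.36 rescaled FPKM in WT and at 0, 0, 2.19 and 0 in WT Late libraries. On a gene as short as a piRNA gene such levels rest on few reads, so its place in this list is weak. T24B8.5 stood at 17.6, 21.4 and 8.20 rescaled FPKM in WT and at 0, 0, 1.41 and 0.228 in WT Late libraries. Its closeness is that of a gene picked for its profile, and among WT libraries it was highest in replicate 2, where the pud genes were lowest. asm-3 and vit-3 were highest of the WT Late libraries in replicate 4.

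The family is named for its response to DAF-2, so genes of that pathway were read beside it. In C. elegans, insulin signalling through DAF-2 holds the transcription factor DAF-16 out of the nucleus. Of 10 insulin pathway genes, limma called 0, with 1 at an unadjusted p under 0.05, the insulin-like peptide gene daf-28 at -2.23, and voom called 0. Over all tested genes these shares were 0.849% called and 8.89% at such a p, so a list of 10 genes near both shares says little of the pathway. The receptor gene daf-2 had a log2 difference of -0.78 (limma adjusted p = 0.678), from a level of 1.098 ± 0.223 (SD, n = 3) rescaled FPKM in WT animals. daf-16 had -0.22. Without WT Late replicate 3, 2 genes of this list were called lower.

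Of 14 genes that DAF-16 raises in daf-2 mutants, 12 were tested and limma called 0, with 3 at an unadjusted p under 0.05, and voom called 0. Their median log2 difference was 0.30, against -0.13 over all tested genes and -3.19 or lower for each pud gene. The aquaporin gene aqp-1 came nearest to the threshold at -1.57 (limma adjusted p = 0.0656), while the ferritin gene ftn-1 and the small heat shock gene hsp-12.6 had 1.91 and 1.87 (limma adjusted p = 0.464 and 0.329). Without WT Late replicate 3, 1 gene of this list was called higher and 1 lower. Quantile normalization called 1 lower, as did a minimum FPKM of 5. Of 7 dod genes that are lowered in daf-2 mutants, 5 were tested and dod-24 was called higher, at 2.42 (limma adjusted p = 0.00916), with 34.9 ± 9.98 (SD, n = 3) against 191 ± 63.7 (SD, n = 4) rescaled FPKM. That call was lost with voom, and when WT replicate 1, WT replicate 2 or WT Late replicate 2 was left out.

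Marker genes of tissues and of stage were read for the same libraries. Over all tested genes, limma called 0.849%, and 8.89% had an unadjusted p under 0.05. In lists this short, a count of 0 therefore says little of tissue or stage. Of 7 tested intestine markers limma called 0 (0 with an unadjusted p under 0.05, voom 0), and their median log2 difference was 0.00. Their summed level lay between 5786 and 8763 rescaled FPKM in WT and between 1566 (replicate 3) and 18433 (replicate 4) in WT Late libraries, and no marker was at 0 in every library. The protease gene asp-1 gave most of that sum, 1022 in WT Late replicate 3 and 15107 in WT Late replicate 4, and the other 6 markers summed to 1452 to 2792 in WT and 544 to 3327 in WT Late libraries. Of 6 epidermis markers, the cuticle collagen gene dpy-7, whose transcript cycles with the molts, was called higher at 2.96 (limma adjusted p = 0.00471), and the list's median was -0.15. dpy-7 stood at 6.00, 4.74 and 4.91 rescaled FPKM in WT and at 62.4, 50.9, 21.4 and 54.4 in WT Late libraries, lowest of the WT Late libraries in replicate 3, where the pud genes were highest. The summed level of the epidermis markers was 24.3 to 29.7 in WT and 40.5 to 85.2 in WT Late libraries. Without dpy-7, the other 5 markers summed to 18.3 to 24.8 in WT and 17.8 to 22.8 in WT Late libraries, so the higher sum was that of dpy-7.

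Of 7 molting genes limma called 0, with 2 at an unadjusted p under 0.05 and a median of 0.24, and of 6 adult cuticle collagens 0, with 1 at such a p and a median of -0.20. Voom called 0 of either list, while without WT Late replicate 3 limma called 1 molting gene and 1 adult collagen higher, and 1 molting gene was called higher with a minimum FPKM of 5. The summed level was 41.8 to 95.2 in WT and 54.8 to 78.5 in WT Late libraries for the molting genes, and 1621 to 2845 and 723 to 2810 for the adult collagens. Of the muscle, neuron, germline and sperm markers limma and voom called 0 of 6, 6, 7 and 4 tested, with 1, 0, 1 and 0 at an unadjusted p under 0.05 and medians of -0.60, -0.07, -0.80 and -0.57. Beside shares of 0.849% and 8.89% over all tested genes, such counts leave little to compare. The log2 differences lay between -1.74 and -0.32 for the germline markers and between -2.15 and -0.02 for the tested sperm markers. Without WT Late replicate 3, 1 germline marker and 1 sperm marker were called lower. The yolk regulators and the yolk receptor, including the intestinal GATA factor elt-2, had 0 of 5 tested genes called by limma and by voom, 0 with an unadjusted p under 0.05 and a median of -0.06. The exact time within L4 is not on the labels, and the part that stage or tissue make-up has in the fall of the pud genes was not tested.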

How the data were processed

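RNA from whole L4 animals was extracted with a Direct-zol kit, and Novogene prepared the libraries. The authors deposited FPKM values in 1 table, with 7 library columns. No source used here names the aligner, counter, annotation or build. The deposited FPKM came out as whole multiples of 1 read for 100% of nonzero values (tolerance 0.02), so reads per gene were recovered, from 17553893 to 20961698 per library. A value near 0 rests on few reads.

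Each library was rescaled with a median-of-ratios factor. The log2 of this value plus 0.5 was fitted with limma 3.58.1 (lmFit, eBayes with trend) in R 4.3.3, all 7 libraries, WT Late against WT. Genes at FPKM 0.5 or more in at least 3 libraries were tested (13194), and a Benjamini-Hochberg adjusted p under 0.05 was a call. The fit was tested on simulated data. Groups come from the labels.

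The members and the gene lists were chosen with earlier results of these data known. Named genes were the 6 members, overlapping genes, the 5 nearest tested genes on each side, list members that were called or needed, and the 5 closest profiles. lipl-2, zip-10, dct-17 and grd-6 were named after their values were seen. Alternatives were other scalings, no filter or a minimum FPKM of 5, pseudocounts of 0.1 and 1, no trend, library weights, voom, a replicate block, summed copies and each library left out.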

Additional observations from a re-analysis of the deposited data

Results flagged for a closer look

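Of 12 sets of WT Late values compared, 6 pud genes and 6 vitellogenins, 2 had a library far from the other 3 of its group, where chance gives about 1 in 20 for a single set. The sets share the same 4 libraries and, within a family, peak in the same one, so they are not independent. For pud-1.2, WT Late replicate 3 stood at 6.144 rescaled FPKM, against 1.05 to 1.87 in the other WT Late libraries. For vit-5, WT Late replicate 4 stood at 22.06 rescaled FPKM, against 9.47 to 10.8 in the others.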

How the results depend on the processing

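The median log2 difference of the 6 pud genes lay between -3.95 and -3.002 with each library left out and between -3.88 and -3.24 under the other alternatives, values that the choice of these genes bears on. Over all genes, 43 were called lower with quantile normalization. With no filter 42 were higher and 9 lower, with library weights 500 and 558, and with voom 22 and 14. With each library left out, between 23 and 361 genes were called higher and between 5 and 282 lower, the highest counts without WT Late replicate 3 and the lowest without WT replicate 1. Library weights called 1 gene within 100 kb of the cluster. For the lists, 3 vitellogenins were called lower with no filter. Library weights called 3 of the DAF-16 targets higher and 1 lower, 2 insulin pathway genes lower, 1 adult cuticle collagen higher, 1 molting gene higher and 1 lower, and 1 germline and 1 sperm marker lower. The cause of these changes was not tested. Deviations of same-numbered libraries correlated at 0.24, -0.09 and -0.18, and not every library was closest to its own number. The replicate number was therefore not used as a pairing in the main fit, but so few correlations cannot exclude a shared batch. With the replicate block, 67 genes were called higher and 32 lower, and the pud median was -3.42. A count of short promoter motifs was planned and not run, because no promoter sequence was used here. Depth limits the split between copies, which rests on 3 to 18 reads per copy in WT Late replicates 1, 2 and 4.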
